A study of Mus musculus with 12 samples.

Results

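The Nrf2 and Keap1 axis was read in immortalized mouse embryonic fibroblasts (MEFs) from 10 genes chosen by name, out of 34866 genes in the deposited table. They were Nfe2l2 (which encodes the transcription factor Nrf2), its inhibitor Keap1, the enzyme genes Nqo1, Hmox1, Gclc, Gclm, Txnrd1 and Srxn1, and thioredoxin (Txn1) with its inhibitor Txnip. Each had 1 identifier in the table, and all 10 were kept for testing, for which the level averaged over the 12 libraries had to reach 1 TPM (a transcript abundance scaled for transcript length and library size). Polyadenylated RNA of 12 cultures was sequenced, 3 per group, and the groups were WT and KO cells of male and of female embryos. WT cells came from 129S1/SvImJ embryos (Sirt3+/+) and KO cells from embryos of a Sirt3-/- stock, both at 13 days. All lines, controls included, carried a stably transfected plasmid with the SV40 T antigen, and passage 6 cells were collected 48 h after seeding. The sources do not give the number of lines in a group. They describe seeding in triplicate wells, so every p below measures only the spread between these cultures, which may be technical. If a group is 1 line, the line cannot be told apart from genotype and sex.

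Nrf2 is a leucine zipper factor that Keap1 holds in the cytoplasm and presents to a Cul3 ubiquitin ligase for destruction. Oxidants and electrophiles modify cysteines of Keap1, so that Nrf2 escapes, enters the nucleus, pairs with a small Maf protein and binds antioxidant response elements near its targets. In fibroblasts, as in other cells, these targets make glutathione, reduce quinones and thioredoxin, and break down heme. Much of this control acts on the Nrf2 protein, which was not measured here.

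Sirt3 mRNA did not follow the genotype labels. It ran from 6.58 to 9.07 TPM in the libraries labelled male WT, from 8.88 to 11.0 in those labelled male KO, from 7.40 to 8.69 in those labelled female WT and from 7.57 to 9.06 in those labelled female KO. Whether the KO transcript is intact cannot be read from a value per gene, and every direction between genotypes below is between libraries as labelled. The authors also show an immunoblot that includes Sirt3 protein, which was not read here. The Y-linked Eif2s3y was listed at 0 in the 6 libraries labelled female and lay between 40.3 and 50.1 TPM in the 6 labelled male. Of 10 fibroblast markers, 9 averaged at least 1 TPM in every group and Lum did not, and their sum ran from 9087 to 10200 TPM in male WT, 11430 to 12130 in male KO, 7937 to 8124 in female WT and 9710 to 10040 in female KO libraries. The sum of 6 epithelial markers, mostly Krt19, ran from 76.1 to 77.8, 7.91 to 8.78, 19.8 to 22.9 and 7.40 to 10.3 TPM in the same order, with Cldn4 at 0 in the male KO libraries. Both sums moved with the genotype labels in both sexes, but not every marker did. Between male WT and KO means, Col1a1 (3184 to 4807 TPM), Col3a1 (667 to 880.7), Pdgfrb (59.1 to 124) and Thy1 (131.5 to 222.6) were higher. Col1a2 (1303 to 1284), Vim (3109 to 3113) and Fn1 (1265 to 1297) stayed close. The part of these sums in the results below was not tested. Of the macrophage markers, Adgre1 was at 0 in every library, and Ptprc and Lyz2 reached at most 0.116 and 0.195 TPM. Cd68 ran from 3.95 to 9.93 TPM over all libraries, and its ranges overlapped between the genotype labels in each sex. Csf1r averaged 0.208 TPM in the labelled male WT and 1.41 in the labelled male KO, and Mertk 2.57 and 0.674 TPM. For females these labelled WT and KO means were 0.164 and 0.287 TPM for Csf1r and 1.69 and 1.60 TPM for Mertk.

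The sequences just before the transcription starts are shown first, since they were searched for the kind of site that Nrf2 reads. They are the 250 bases before the RefSeq start, and 8 of the 10 genes had an entry (Hmox1 and Gclc did not). The windows of Nfe2l2, Nqo1 and Txnip are given because these genes passed the test between labelled male KO and male WT cells, and that of Gclm because it passed between labelled KO cells of the sexes. Capitals mark the core of an antioxidant response element, TGACNNNGC on either strand, except in Txnip, where they mark CACGNG on either strand, a form of the E box that carbohydrate-responsive factors read.
Nfe2l2 (chr2:75704664-75704913, minus strand, GRCm38.p6): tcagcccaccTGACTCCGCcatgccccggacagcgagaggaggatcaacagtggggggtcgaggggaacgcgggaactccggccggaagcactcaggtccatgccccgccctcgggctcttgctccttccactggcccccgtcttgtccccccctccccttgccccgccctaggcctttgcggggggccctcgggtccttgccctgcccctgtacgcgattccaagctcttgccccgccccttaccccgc
Gclm (chr3:122245307-122245556, plus strand, GRCm38.p6): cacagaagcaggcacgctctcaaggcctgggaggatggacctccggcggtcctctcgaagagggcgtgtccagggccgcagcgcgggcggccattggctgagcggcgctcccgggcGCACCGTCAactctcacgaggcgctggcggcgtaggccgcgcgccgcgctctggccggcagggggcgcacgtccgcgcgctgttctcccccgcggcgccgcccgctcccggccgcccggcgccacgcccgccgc
Nqo1 (chr8:107403206-107403455, minus strand, GRCm38.p6): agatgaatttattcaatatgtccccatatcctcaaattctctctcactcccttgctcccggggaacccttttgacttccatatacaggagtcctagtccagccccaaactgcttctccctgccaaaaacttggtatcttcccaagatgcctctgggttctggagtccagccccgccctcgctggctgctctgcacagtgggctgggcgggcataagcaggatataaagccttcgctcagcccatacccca
Txnip (chr3:96557707-96557956, plus strand, GRCm38.p6): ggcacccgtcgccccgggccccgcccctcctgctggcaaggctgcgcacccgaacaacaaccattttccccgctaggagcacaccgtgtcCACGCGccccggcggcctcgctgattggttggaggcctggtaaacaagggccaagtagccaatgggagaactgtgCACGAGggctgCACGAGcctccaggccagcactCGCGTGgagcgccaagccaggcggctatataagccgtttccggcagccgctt

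The core element stood in 3 of the 10 windows of these genes (1 each of Nfe2l2, Gclm and Txnrd1, the last of which has 3 windows), against 10.2% of 32851 windows of all genes. Its 5′ end on the strand of the gene lay 240 bases before the start in Nfe2l2 and 134 in Gclm. CACGNG matched in Txnip, Gclm and Txnrd1, at 4 places in Txnip, and in 23.5% of all windows. The AP-1 site TGACTCA, whose first letters overlap the core element, matched at 2 places in Srxn1 and in 4.46% of all windows. The C/EBP-ATF site TGATGNAA matched in none of the 8 genes and in 3.45% of all windows. Both strands were searched, and a match of these letters describes the window and is not a measured site.

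The 10 genes covered a wide span of levels, which can be set side by side because TPM are scaled by transcript length. Txn1, a small protein disulfide reductase, was the most abundant in every group, at 626 to 732 TPM over the 12 libraries. Txnrd1, which recharges thioredoxin with electrons from NADPH, followed at 330.3 to 364 TPM. Gclm and then Hmox1 came next, and their ranges overlapped in the labelled female KO libraries alone. Nfe2l2, Srxn1, Keap1 and Gclc formed a middle layer between 34.9 and 55.9 TPM. Within it Nfe2l2 and Srxn1 overlapped in 3 groups but not in the labelled male KO, where every Nfe2l2 value was the higher. At the bottom, Nqo1 lay above Txnip in the labelled male WT (23.6 ± 1.82 against 17.3 ± 0.612 TPM, SD, n = 3) and below it in the labelled male KO (16.8 ± 1.48 against 26.1 ± 3.27 TPM), and their ranges overlapped in both female groups.

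**Figure D1:**
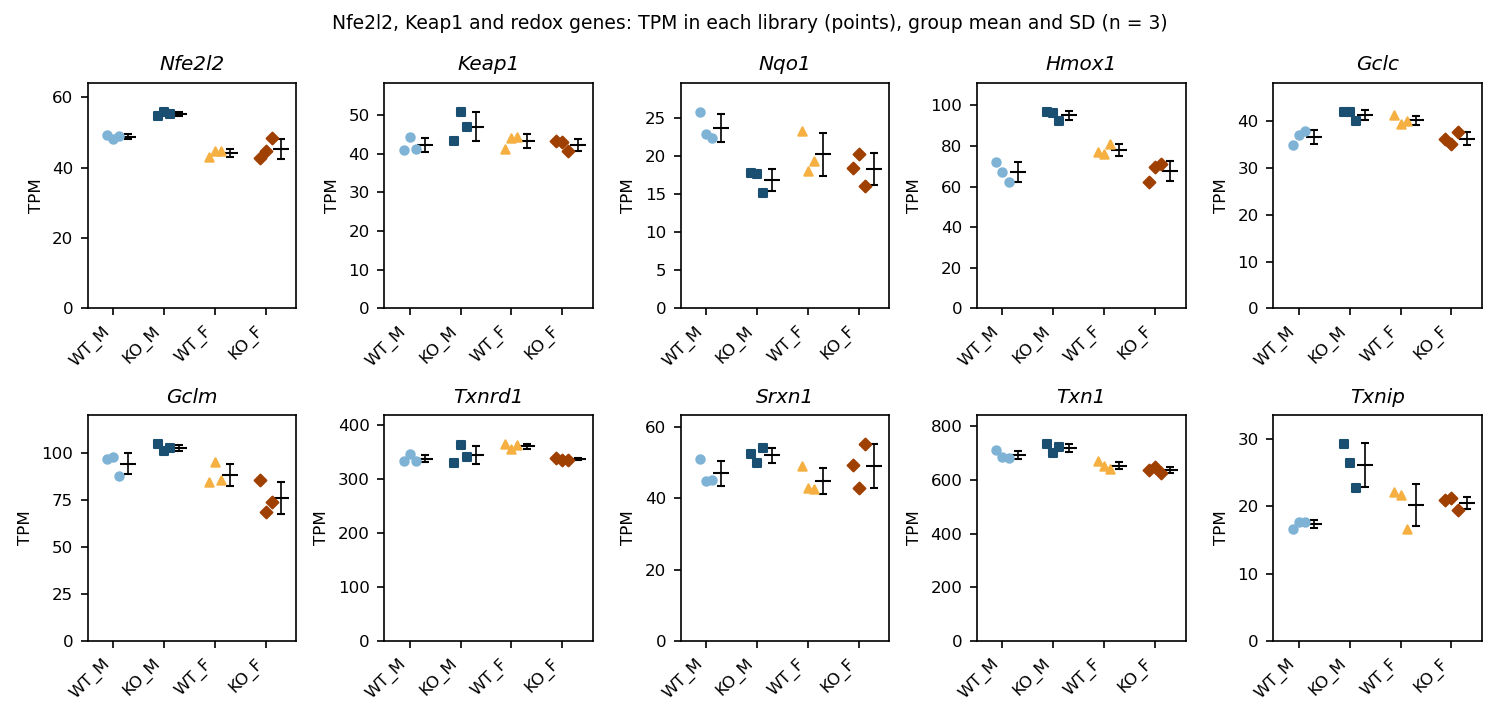
TPM (vertical axis, from 0) of the 10 genes in each of 12 libraries (points), by labelled group on the horizontal axis, with the group mean and SD beside the points (n = 3). Hmox1 in the male KO libraries, at 92.3 to 96.7 TPM, stands above all other libraries, and Nqo1 in the male KO libraries, at 15.1 to 17.8 TPM, stands below the male WT libraries.

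To ask how the axis stood in male KO MEFs, labelled male KO libraries were compared with labelled male WT libraries. Nfe2l2, Hmox1 and Txnip rose and Nqo1 fell, by limma with Benjamini-Hochberg adjustment over all 12504 genes tested, at an adjusted p under 0.05 with no fold threshold. These are 4 of the 10 genes, against 21.6% of all genes tested (10.7% higher and 10.9% lower). Ranges did not overlap for 6 of the 10, against 40.0% of all genes. The median log2 fold change of the 10 was 0.15, beside -0.015 for all tested genes. Fold changes are on the log2(TPM+1) scale, which understates the change of low genes.

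Nfe2l2 (chr2:75675513-75704641, GRCm38) measured 49.3, 48.2 and 49.1 TPM in the labelled male WT and 54.7, 55.9 and 55.3 TPM in the labelled male KO libraries. The groups did not overlap and each was tight. The log2 fold change was small, at 0.17 (1.13-fold, standard error 0.044, limma adjusted p = 0.0312). Its call was lost whichever single library was left out, with limma adjusted p from 0.0649 to 0.0911 and fold changes from 0.16 to 0.18.

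Keap1, the inhibitor (chr9:21229730-21239361), lay at 41.1 to 44.4 TPM in the labelled male WT and at 43.3 to 50.8 in the labelled male KO libraries. These ranges overlapped, and the log2 fold change of 0.15 did not pass (95% interval from -0.021 to 0.32, limma adjusted p = 0.192).

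Hmox1 (chr8:75093621-75100589) encodes heme oxygenase, which opens heme to biliverdin, iron and carbon monoxide. It measured 72.01, 67.1 and 62.5 TPM in the labelled male WT and 96.7, 96.04 and 92.3 TPM in the labelled male KO libraries. All male KO values lay above all male WT values. The log2 fold change was 0.50 (1.41-fold, standard error 0.060, limma adjusted p = 0.00167), and it ran from 0.44 to 0.55 with each library left out in turn.

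Nqo1 (chr8:107388225-107403206) encodes a quinone reductase that is a textbook Nrf2 target. Its values were 25.7, 22.9 and 22.3 TPM in the labelled male WT and 17.8, 17.6 and 15.1 TPM in the labelled male KO libraries. Every male KO value was under every male WT value, the opposite direction to Hmox1. The log2 fold change was -0.47 (0.723-fold, standard error 0.093, limma adjusted p = 0.0127), and it ran from -0.51 to -0.40 with each library left out.

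Gclc and Gclm encode the catalytic and modifier subunits of glutamate-cysteine ligase, the rate-limiting enzyme of glutathione synthesis. Gclc (chr9:77754535-77794485) measured 34.9, 36.9 and 37.9 TPM in the labelled male WT and 41.8, 41.9 and 39.9 TPM in the labelled male KO libraries. The groups did not overlap, yet the log2 fold change of 0.17 did not pass (limma adjusted p = 0.0797). It passed with all 12 libraries in one fit (limma adjusted p = 0.0273) and with median-of-ratios scaling (limma adjusted p = 0.0481). Gclm (chr3:122245557-122270732) measured 97.1, 98.3 and 88.1 TPM in the labelled male WT and 105, 101 and 103 TPM in the labelled male KO libraries. These groups did not overlap either, and the log2 fold change of 0.12 did not pass (limma adjusted p = 0.145).

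Neither thioredoxin, its reductase nor sulfiredoxin passed in males. The log2 fold change was 0.15 for Srxn1, which repairs overoxidized peroxiredoxins (95% interval from -0.014 to 0.31), 0.052 for Txn1 (interval from -0.023 to 0.13) and 0.028 for Txnrd1 (interval from -0.075 to 0.13). Their limma adjusted p were 0.176, 0.296 and 0.698. A p that misses the threshold does not show that these levels were equal.

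Txnip (chr3:96557957-96561883) binds reduced thioredoxin and blocks it, and as an arrestin-like protein it also lowers glucose uptake. It measured 16.6, 17.7 and 17.6 TPM in the labelled male WT and 29.2, 26.5 and 22.7 TPM in the labelled male KO libraries. The groups did not overlap, and the male KO libraries were the more spread. The log2 fold change was 0.56 (standard error 0.099, limma adjusted p = 0.00833), and it ran from 0.48 to 0.65 with each library left out.

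The same question in females was put to labelled female KO and female WT libraries. After Benjamini-Hochberg adjustment limma called none of the 10, against 11.5% of all genes tested (49.1% of these calls were higher in KO, and 59.3% with median-of-ratios scaling). At an unadjusted p under 0.05 there were 4 of the 10, Hmox1, Gclc, Gclm and Txnrd1, each with a lower mean in the labelled KO. Ranges did not overlap for 3 of the 10, all lower in KO, against 33.6% of all genes. The median log2 fold change of the 10 was -0.066, beside -0.023 over all genes.

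Hmox1 measured 76.8, 75.9 and 81.2 TPM in the labelled female WT and 62.1, 69.5 and 71.3 TPM in the labelled female KO libraries. Every female KO value was under every female WT value, where in males every KO value was above. The female log2 fold change was -0.20 (standard error 0.061, limma adjusted p = 0.0835). Gclc measured 41.2, 39.3 and 39.9 TPM in the labelled female WT and 36.04, 34.96 and 37.7 TPM in the labelled female KO libraries. Again no KO value reached the WT range, and the log2 fold change was -0.14 (standard error 0.050, limma adjusted p = 0.120).

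Txnrd1 ran from 355 to 364 TPM in the labelled female WT and from 336 to 340.1 in the labelled female KO libraries. Its log2 fold change of -0.10 (standard error 0.024) had a limma adjusted p of 0.0509. It passed with a pseudocount of 0.1 (limma adjusted p = 0.0499), a mean of at least 5 TPM (0.0498), no filter on low values (0.0342) or quantile normalization (0.0355). Gclm measured 84.5, 95.1 and 86.01 TPM in the labelled female WT and 85.7, 68.8 and 74.2 TPM in the labelled female KO libraries. The groups overlapped through KO replicate 1, and the log2 fold change was -0.22 (limma adjusted p = 0.169).

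The remaining 6 genes had overlapping female groups. Nfe2l2 had a log2 fold change of 0.035 (95% interval from -0.10 to 0.17), Keap1 of -0.034 (from -0.16 to 0.090) and Nqo1 of -0.14 (from -0.43 to 0.15). Srxn1 was at 0.12 (from -0.12 to 0.36), Txn1 at -0.036 (from -0.10 to 0.028) and Txnip at 0.031 (from -0.24 to 0.30). The intervals of Nqo1, Srxn1 and Txnip are wide enough to hold changes of the size that passed for Nfe2l2 in males. The female interval of Nfe2l2 itself ended at 0.1734, just under its male value of 0.1748.

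**Figure D2:**
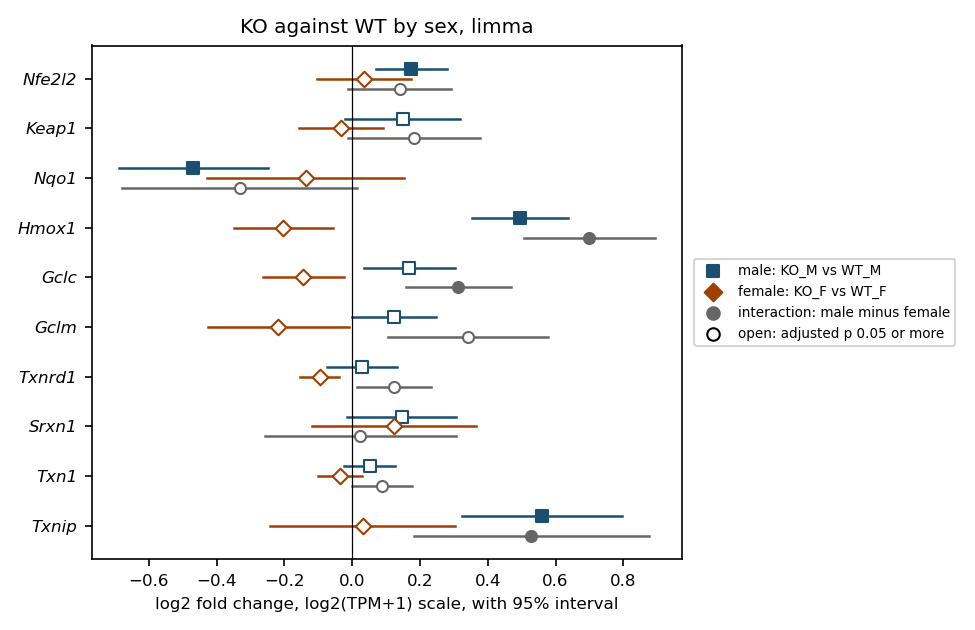
Log2 fold change on the log2(TPM+1) scale (horizontal axis) of each gene (vertical axis) between labelled KO and WT libraries in males (squares) and females (diamonds), and the male minus female difference (circles), with 95% intervals from limma. Filled symbols passed an adjusted p of 0.05, and Hmox1 lies at 0.50 in males and -0.20 in females, with a difference of 0.70.

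Whether the genotype difference itself differed between male and female MEFs was tested as the sex by genotype interaction over all 12 libraries. It passed for 3 of the 10 genes, against 13.0% of all genes, by limma with Benjamini-Hochberg adjustment. For Hmox1 the male minus female difference was 0.70 on the log2 scale (standard error 0.088, adjusted p = 2.67e-04), and it passed under 19 of 19 alternatives, which include leaving out each library. For Gclc it was 0.31 (standard error 0.070, adjusted p = 0.0125), and it passed under 19 of 19. For Txnip it was 0.53 (standard error 0.16, adjusted p = 0.0480), but this call held under 5 of 19. It was lost on leaving out any library except male KO replicate 3 or female WT replicate 3, with limma adjusted p from 0.0716 to 0.108.

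Hmox1 and Gclc were the 2 genes of the 10 with every labelled male KO value above male WT and every labelled female KO value below female WT, a pattern held by 2.27% of all tested genes. For Gclm the interaction was 0.34 (limma adjusted p = 0.0616), and it passed without female KO replicate 1 (0.43, adjusted p = 0.0106). For Nqo1 it was -0.33 (limma adjusted p = 0.221), so a difference between the sexes in the Nqo1 change was not shown. Nfe2l2 (0.14, adjusted p = 0.237) and Keap1 (0.18, adjusted p = 0.227) did not pass by limma either. Srxn1, Txn1 and Txnrd1 lay at 0.024, 0.088 and 0.12 without passing.

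The sexes were then compared among WT libraries. After Benjamini-Hochberg adjustment limma called none of the 10, against 12.8% of all genes, and 5 had an unadjusted p under 0.05. Of these, Nfe2l2 (0.14) and Txn1 (0.085) had positive and Hmox1 (-0.21), Gclc (-0.13) and Txnrd1 (-0.094) negative male minus female log2 differences. Ranges of the same 5 genes did not overlap, against 33.4% of all genes. Hmox1 had a limma adjusted p of 0.0677 and passed with all libraries in one fit (0.0394) and without male WT replicate 1 (0.0448).

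Among labelled KO libraries, 4 of the 10 genes were higher in male than in female MEFs by limma with Benjamini-Hochberg adjustment and none was lower, against 16.6% of all genes called in either direction and 8.17% called higher. The log2 differences were 0.49 for Hmox1 (standard error 0.060, adjusted p = 0.00211), 0.43 for Gclm (standard error 0.079, adjusted p = 0.0110), 0.28 for Nfe2l2 (standard error 0.058, adjusted p = 0.0184) and 0.17 for Txn1 (standard error 0.029, adjusted p = 0.00800). Ranges did not overlap for 7 of the 10, all higher in males, against 35.4% of all genes in either direction. The Nfe2l2 call was lost on leaving out any male KO library or female KO replicate 1 or 2 (limma adjusted p up to 0.0641). Nqo1 had a difference of -0.11 that did not pass (limma adjusted p = 0.561). These libraries also enter the comparisons above, so the values are not independent of them.

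When all 12 libraries were fitted by genotype without regard to sex, Nqo1 alone of the 10 passed (log2 fold change -0.30, standard error 0.091, limma adjusted p = 0.0475), against 12.3% of all genes. The call was lost on leaving out any male library, female WT replicate 1 or female KO replicate 1 or 3 (limma adjusted p from 0.0574 to 0.101). Hmox1 had a value of 0.15 in this fit (limma adjusted p = 0.440).

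As a measure of the factor against its inhibitor, the ratio of Nfe2l2 to Keap1 TPM was taken in each library. It was 1.16 ± 0.0639 in the labelled male WT and 1.18 ± 0.0810 in the labelled male KO libraries (SD, n = 3). In females it was 1.02 ± 0.0155 in the labelled WT and 1.07 ± 0.107 in the labelled KO libraries. On the log2 scale the labelled KO minus WT difference was 0.025 (standard error 0.074) in males and 0.070 (standard error 0.082) in females. Exact 2-sided permutation tests gave p = 0.8 and p = 0.6, where 3 libraries against 3 cannot go below 0.1.

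The genes whose standardized profiles over the 12 libraries were most like a member are named as a description. Libraries of a group share genotype and sex and were seeded in triplicate, so the 12 points are not independent. Closest to Nfe2l2 were Smad9, a transcription factor of bone morphogenetic protein signalling, Spns2, a sphingosine-1-phosphate exporter, and Chst15, a sulfotransferase of chondroitin sulfate. Their root mean square differences were 0.247, 0.250 and 0.268 SD units, against a median of 1.40 over all tested genes. All 3 were low, at most 10.8 TPM on average in any group. Closest to Txnip were Glipr2 (0.382), Lrpap1, a chaperone of lipoprotein receptors (0.402), and Ntrk3, the neurotrophin receptor gene (0.425), against a median of 1.39.

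The other genes of the pathway were read from 6 lists of 97 genes, of which 90 passed the filter. Among regulators of Nrf2, 1 of 18 tested genes rose and 2 fell between the labelled male WT and male KO MEFs, by limma with Benjamini-Hochberg adjustment over all genes, so the called share was below the 21.6% of all genes. All 3 were small Maf genes, whose proteins Nrf2 needs to bind DNA. Mafg rose (76.3 ± 4.07 to 95.1 ± 8.21 TPM, log2 fold change 0.31, adjusted p = 0.0228), while Mafk (-0.50, adjusted p = 0.0114) and Maff (-0.34, adjusted p = 0.0224) fell. In labelled female KO MEFs Bach1, the repressor that competes with Nrf2 for its elements, rose (0.24, adjusted p = 0.0417), and Maff (-0.27, adjusted p = 0.0479) and the kinase gene Prkcd (-0.19, adjusted p = 0.0438) fell. The list median was 0.0096 in males and -0.024 in females.

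Of 24 tested genes of glutathione and detoxification, 10 rose and 3 fell in the labelled male KO (against 10.7% and 10.9% of all genes), with a list median of 0.22. In the labelled female KO 3 rose and 4 fell (against 11.5% of all genes in either direction), with a list median of -0.015. Mgst1, a membrane-bound glutathione transferase, ran from 1.52 to 3.71 TPM in male WT, from 4.91 to 8.42 in male KO, from 4.01 to 5.78 in female WT and from 1.94 to 2.41 in female KO libraries as labelled. The labelled KO was higher than WT in males, by 1.23 on the log2 scale (limma adjusted p = 0.0202), and lower in females, at -0.83 (limma adjusted p = 0.0200). Its relative Mgst3 fell in males, from 23.8 ± 1.46 to 12.9 ± 0.504 TPM (-0.83, limma adjusted p = 4.77e-04). Also lower in the labelled male KO were the glutathione reductase gene Gsr (-0.45, limma adjusted p = 0.00317) and the glutathione synthetase gene Gss (-0.28, limma adjusted p = 0.0350). The aldo-keto reductase gene Akr1b10, whose reads may be split with the close paralog Akr1b8, rose in males (0.68, limma adjusted p = 0.00715). The epoxide hydrolase gene Ephx1 rose in both sexes by limma, with a male value of 0.63 (adjusted p = 0.00374) and a female value of 0.85 (adjusted p = 5.86e-04). Nqo2, a relative of Nqo1, also rose in both sexes by limma, with a male value of 0.46 (adjusted p = 0.0431) and a female value of 0.41 (adjusted p = 0.0477). In females the exporter gene Abcc5 fell (-0.30, limma adjusted p = 0.0293).

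**Figure D3:**
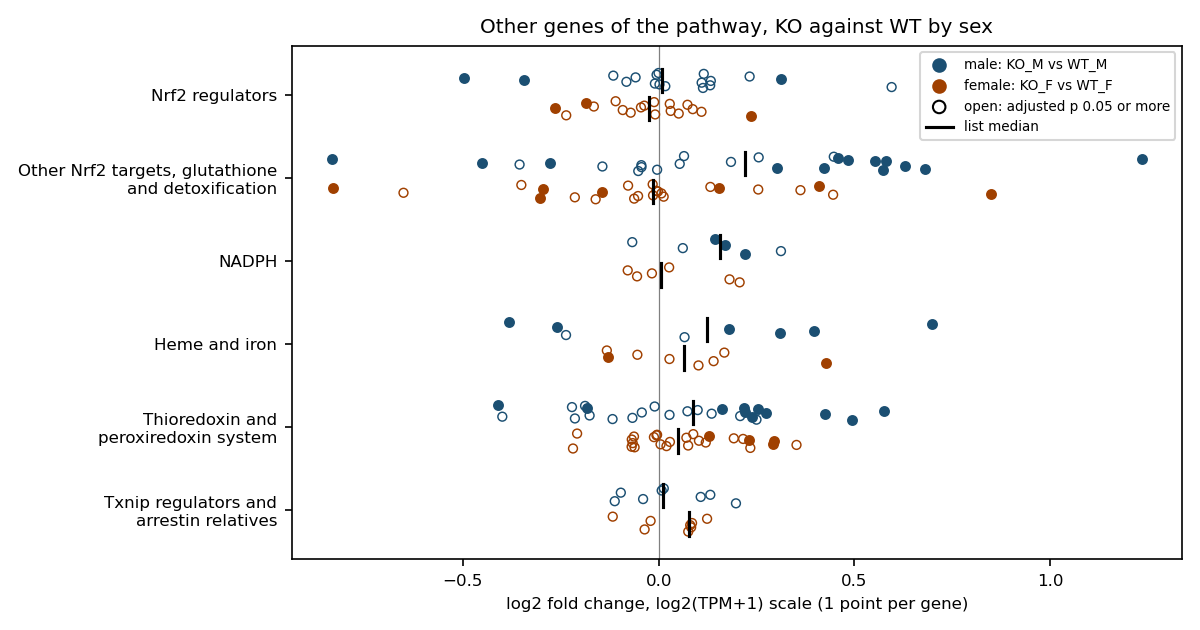
Log2 fold change on the log2(TPM+1) scale (horizontal axis) of each tested gene (1 point) in 6 lists of pathway genes (vertical axis), labelled KO against WT, in males (blue) and females (brown), with filled points past a limma adjusted p of 0.05 and black bars at the list medians. The median of the glutathione and detoxification list lies at 0.22 in males and -0.015 in females.

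Genes of heme and iron handling, beside the substrate and product of Hmox1, moved in both directions in the labelled male KO, where 4 of 8 tested rose and 2 fell by limma (against 10.7% and 10.9% of all genes). Slc48a1, a heme transporter, went from 33.1 ± 1.23 to 54.3 ± 3.42 TPM (log2 fold change 0.70, adjusted p = 4.54e-04). The ferritin heavy chain gene Fth1, whose protein stores iron, went from 719 ± 41.1 to 945 ± 26.6 TPM (0.40, adjusted p = 0.00151). Fech, the last enzyme of heme synthesis, rose (0.31, limma adjusted p = 0.0127), and Tfrc, the transferrin receptor that brings iron in, fell (-0.38, limma adjusted p = 0.0403). Hmox2, a second heme oxygenase gene, also fell (-0.26, limma adjusted p = 0.0118).

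The ferritin light chain gene Ftl1 had the sign of Hmox1 in each sex. It was 3542 ± 47.8 TPM in the labelled male WT and 4014 ± 65.0 in the labelled male KO libraries (log2 fold change 0.18, limma adjusted p = 0.00321). In females it was 3679 ± 7.65 TPM in the labelled WT and 3363 ± 15.8 in the labelled KO libraries (-0.13, limma adjusted p = 0.00660). Reads of its pseudogenes could be counted on it, and Ftl1-ps1 averaged 2.57 TPM. Blvrb, a biliverdin reductase, rose in the labelled female KO (0.43, limma adjusted p = 0.0281) and had a male value of -0.24 that did not pass (limma adjusted p = 0.181).

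**Figure D4:**
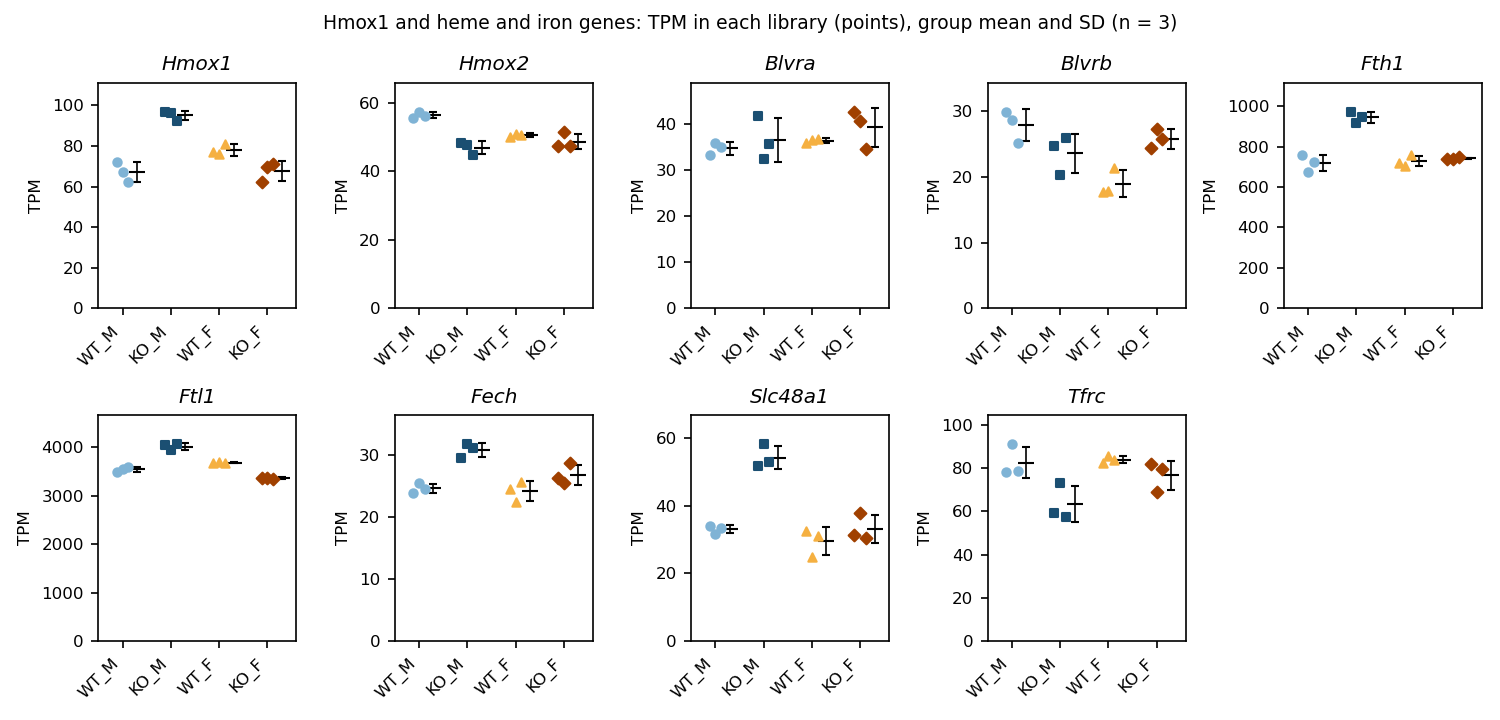
TPM (vertical axis, from 0) of Hmox1 and the 8 tested heme and iron genes in each library (points) by labelled group (horizontal axis), with the group mean and SD (n = 3). Fth1 and Slc48a1 are highest in the male KO libraries, at 945 ± 26.6 and 54.3 ± 3.42 TPM.

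In the thioredoxin and peroxiredoxin list, 9 of 26 tested genes rose and 2 fell in the labelled male KO, against 21.6% of all genes in either direction. In the labelled female KO 4 rose and none fell, near the 11.5% of all genes. In males Sesn2, a stress-induced sestrin (0.57, limma adjusted p = 0.00171), the glutaredoxin gene Glrx (0.49, limma adjusted p = 0.0103) and the peroxiredoxin gene Prdx2 (0.43, limma adjusted p = 5.93e-04) rose, and the thioredoxin reductase gene Txnrd3 fell (-0.41, limma adjusted p = 0.0180). In females the peroxiredoxin genes Prdx4 (0.29) and Prdx6 (0.23), the nucleoredoxin gene Nxn (0.29) and Txndc5 (0.13) rose. Of these, Prdx4 (0.27, limma adjusted p = 0.011), Prdx6 (0.22, limma adjusted p = 0.0122) and Txndc5 (0.22, limma adjusted p = 0.00254) were also called higher in the labelled male KO. Nxn was not called in males (-0.18, limma adjusted p = 0.0689).

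Of 6 genes around the supply of NADPH, the electron donor of Txnrd1 and Nqo1, 3 rose in the labelled male KO, against 10.7% of all genes. These were the NADPH-making dehydrogenase genes G6pdx (0.22, limma adjusted p = 0.0408) and Pgd (0.17, limma adjusted p = 0.0273), and Tkt, a transketolase of the pentose phosphate pathway that does not itself make NADPH (0.14, limma adjusted p = 0.0409). None passed limma in females (against 11.5% of all genes), where 1 had an unadjusted p under 0.05. It was G6pdx, with a female value (0.21, limma adjusted p = 0.0628) close to the male one. Of the 8 tested regulators and arrestin relatives of Txnip none passed limma in males, females or the interaction. The shares of all genes were 21.6%, 11.5% and 13.0%, and at these a list of 8 genes can hold no call. An unadjusted p under 0.05 was met by 1 gene in males (0 in females and 0 in the interaction).

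Many of these list calls were not stable. Of 36 list genes called in males 20 were called under every alternative run, including leaving out each library, and of 16 called in females 2 were (Ephx1 and Prdx4). Of the male calls named above, those of Mafk, Mgst3, Gsr, Ephx1, Akr1b10, Fth1, Slc48a1, Hmox2, Prdx2, Prdx4, Prdx6, Txndc5, Glrx and Sesn2 were among the 20. Those of Maff, Mafg, Mgst1, Gss, Nqo2, G6pdx, Pgd, Tkt, Fech, Tfrc, Txnrd3 and Ftl1 were not. The interaction passed for 23 of the 90 list genes, against 13.0% of all genes, and for 15 of them it passed under every alternative. In the detoxification list 9 had a positive and 3 a negative male minus female difference, beside 3 and 1 of the heme and iron genes and 4 and 1 of the thioredoxin system genes.

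Some members cannot be fully separated from their neighbours. In the annotation, genes on the opposite strand lie across Keap1, Gclm, Txnrd1 and Txnip, and the sources used here do not say whether counting used strand. On the same strand, the pseudogene Gm6061 (3.76 TPM on average) overlaps Gclm and Eid3 (1.95 TPM) overlaps Txnrd1.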

How the data were processed

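The authors quantified polyadenylated RNA with Salmon (version 1.10.1 per the labels) against GRCm38 and deposited TPM per gene for 12 libraries, with 3 in each group. Whether strand was used is not given in the sources used here. The authors give a target number of reads per sample. TPM keep no depth, so the depth reached in each library is unknown and no counting interval is given. The identifiers were matched to GENCODE vM21 for symbols (99.4% matched, 93.6% with the same version), and 0 columns of per-sample values were left unused.

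The 12504 genes averaging 1 TPM or more were tested on log2(TPM+1) with limma 3.58.1 in R 4.3.3, with a mean-variance trend, fitting only the groups compared (all 12 libraries for the interaction and for genotype disregarding sex). P-values were adjusted by Benjamini-Hochberg over all tested genes and called under 0.05. The same replicate numbers did not pair libraries. The test was also run on simulated data, with a single draw for each comparison. There the share of false calls lay above the nominal rate for the female and the WT comparisons and, slightly (5.62%), for genotype disregarding sex. A single draw cannot show whether the rate itself is exceeded. Most of the smaller changes were missed when groups of 3 were compared.

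The members and lists were chosen with earlier results of these data known. Named genes are all members, Sirt3, Y-linked genes and the 3 genes with profiles most like Nfe2l2 and Txnip. From each list they are the called genes, at most 4 per comparison by largest absolute log2 fold change. Gsr, Gss and Hmox2, also called in males, were named in addition. Marker lists covered fibroblast, epithelial, macrophage and endothelial genes, and the macrophage markers summed to at most 12.1 and the endothelial to at most 5.76 TPM in a library. The endothelial sum ran from 4.715 to 5.76 TPM in labelled female WT and from 1.873 to 2.249 in female KO libraries, mostly Kdr (means 4.77 and 1.76). In males it ran from 1.805 to 2.106 in WT and from 1.396 to 1.632 in KO libraries. Its part in the results was not tested. 1 further marker list is not reported here. Alternatives were quantile normalization, median-of-ratios scaling, a pseudocount of 0.1, a minimum mean of 5 TPM or no filter, no trend, a replicate block, one fit of all libraries, sex as a covariate and leaving out each library. Promoter windows are RefSeq, GRCm38.p6.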

Additional observations from a re-analysis of the deposited data

Results flagged for a closer look

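The sex by genotype interaction passed the limma test for 3 members and for the 14 list genes whose values follow. For these the labelled KO minus WT difference differed between male and female MEFs, by a test of the difference itself. The members were Hmox1 (0.70 on the log2 scale, male minus female), Gclc (0.31) and Txnip (0.53). Among heme and iron genes, Slc48a1 (0.53), Fth1 (0.37) and Ftl1 (0.31) had positive values and Blvrb (-0.66) a negative one. Among detoxification genes, Mgst1 (2.06), Akr1b10 (0.90) and Gstm5 (0.88), which may share reads with the paralog Gstm1, were positive and Mgst3 (-0.97) negative. Among thioredoxin system genes, Glrx (0.71), Sesn2 (0.36) and Prdx2 (0.30) were positive and Nxn (-0.47) negative. Pgd stood at 0.19 and Mafg at 0.36. Adjusted p ran from 1.75e-05 for Ftl1 to 0.0480 for Txnip. The calls of Txnip, Slc48a1, Pgd, Mafg and Sesn2 were each lost under some alternatives, and those of the other 12 genes held under every alternative run.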

How the results depend on the processing

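Called members stood at 1 in place of 0 for female KO against WT with pseudocount 0.1, no filter, a mean of at least 5 TPM or quantile normalization (Txnrd1 in each), and at 1 in place of 0 for male against female WT with no filter (Nfe2l2), quantile normalization (Txnrd1) or one fit of all libraries (Hmox1). Genotype disregarding sex gave 0 in place of 1 with no filter, median-of-ratios scaling, quantile normalization or no trend. Leaving out each library gave 0 to 1 called members for the WT sexes and 0 to 1 for genotype disregarding sex. With no filter, called list genes numbered 1 in place of 3 (Nrf2 regulators, males), 0 in place of 1 (the same list, interaction), 4 in place of 7 (detoxification, females), 1 in place of 3 (NADPH, males) and 0 in place of 2 (heme and iron, females). The cause was not tested in any of these. Outside the calls, Txn1 disregarding sex turned to -0.021 with quantile normalization. With 1 library left out, uncalled values changed sign, over ranges from -0.011 to 0.059 (Txnrd1, males), -0.095 to 0.10 (Txnip, females), -0.014 to 0.074 (Nfe2l2, females), -0.070 to 0.11 (Srxn1, interaction), -0.0087 to 0.062 and -0.0032 to 0.18 (Txnrd1 and Srxn1, KO sexes), and -0.014 to 0.040, -0.015 to 0.030 and -0.10 to 0.025 (Gclc, Txn1 and Gclm, disregarding sex). Among KO libraries, Gclm lost its call with no filter (adjusted p = 0.0564) and Txn1 with no trend (0.0726), and Gclc gained one with median-of-ratios scaling (0.0444), quantile normalization (0.0477) or one fit (0.0234), and Txnip without male KO replicate 3 (0.0328), all by limma. Nfe2l2 in males also missed the threshold with no trend (limma adjusted p = 0.0541).

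Libraries of the same replicate number did not deviate together (r from -0.0571 to 0.0779), so the number is only a name. With a replicate block Nfe2l2 lost its call in males (limma adjusted p = 0.0706) and between the KO sexes (0.0507), members called in males numbered 3, and genes called among all in females numbered 670 in place of 1434. Genes called in females numbered 774 to 835 with a library left out, and with sex as a covariate 2624 in place of 1544 were called disregarding sex. Between the WT sexes 1053, 1068 and 1037 in place of 1603 were called without male WT replicate 3, female WT replicate 1 and female WT replicate 3, and between the KO sexes 1328 in place of 2070 without male KO replicate 3. The unknown depth reached in each library limits all low values, and 3 cultures a group limit every test.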
